A study of Drosophila melanogaster with 4 samples.

Results

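The genes of the proteasome were examined for Dam-Pr-set7 summits in neural stem cells of Drosophila melanogaster larvae. They were chosen by symbol alone, as RefSeq protein-coding genes named Prosalpha, Prosbeta, or Rpn or Rpt followed by a digit, and numbered 48 of the 13922 protein-coding genes on the chromosome arms 2L, 2R, 3L, 3R, 4 and X. Of these, 32 carry the family name and a number alone and are called constitutive subunits here, and 16 carry further letters (T or R after the number) and are called lettered variants. Genes are described as reached where a summit fell inside the annotated span or no more than 1000 bp beyond it.

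The proteasome is the protease that breaks down proteins tagged with ubiquitin. Its core particle is a barrel of alpha rings, which gate the entrance, and beta rings, which hold the proteolytic sites. The regulatory particle that caps the barrel has a base, with the Rpt ATPases that unfold substrates and the scaffold and ubiquitin-receptor Rpn subunits, and a lid of further Rpn subunits around the deubiquitinase Rpn11. Constitutive subunits are needed in nearly every cell, whereas several of the lettered variants are paralogues known in the fly for expression in the testis. Cyclins and other cell cycle regulators are among the substrates of the proteasome in dividing cells.

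In targeted DamID the methylase Dam, alone or fused to a chromatin protein, marks the adenine of nearby GATC motifs, and the methylated DNA is then amplified and sequenced. Pr-set7 is the methyltransferase that puts the first methyl group on lysine 20 of histone H4. The 4 samples fall into 2 with UAS-Dam and 2 with UAS-Dam-Pr-set7, from the construct pUASTattB-LT3-NDam-Pr-set7. Both transgenes were under grh-Gal4, a driver that the series describes as specific to neural stem cells. Eggs from a collection window of 6 h were kept at 25 °C, and hatched larvae spent 24 h at 29 °C before dissection. The values are the summits of the 2 Dam-Pr-set7 samples. Each comes from its own batch, with 1 Dam sample beside it, so that batch and replicate cannot be told apart. The Dam samples were not analysed here, and no summit is set against the Dam background. Replicate 1 had 2876 summits with a median height of 42 fragments (12 to 279) and replicate 2 had 4281 with a median of 37 (11 to 204). The depth of the libraries is unknown. Summit lists hold no expression values, so the labelled cell type could not be checked against markers.

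Summits reached 8 of the 48 proteasome genes in both replicates, which is 16.7% (exact 95% interval 7.48 to 30.2%). Over all protein-coding genes the same rule gave 18.2%, so the share of the proteasome genes lay near the background and is no result about them as a group. The 8 genes were Prosalpha2, Prosbeta3, Prosbeta4, Prosbeta5, Prosbeta6, Rpn3, Rpn8 and Rpt3R. Counting these 8, replicate 1 reached 10 of the 48 (20.8%, against 22.5% of all genes), and replicate 2 reached 12 (25.0%, against 28.1%). In all, 14 genes were reached in at least 1 replicate (29.2%, against 32.4%), and 34 in neither. With each summit assigned to a single gene, by the closest gene end, 3 proteasome genes were left (6.25%, against 11.1% of all genes). With summits above the median height of their own list, 4 were left (8.33%, against 10.9%). Intervals cover counting error only, and neighbouring genes can share a summit.

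**Figure D1:**
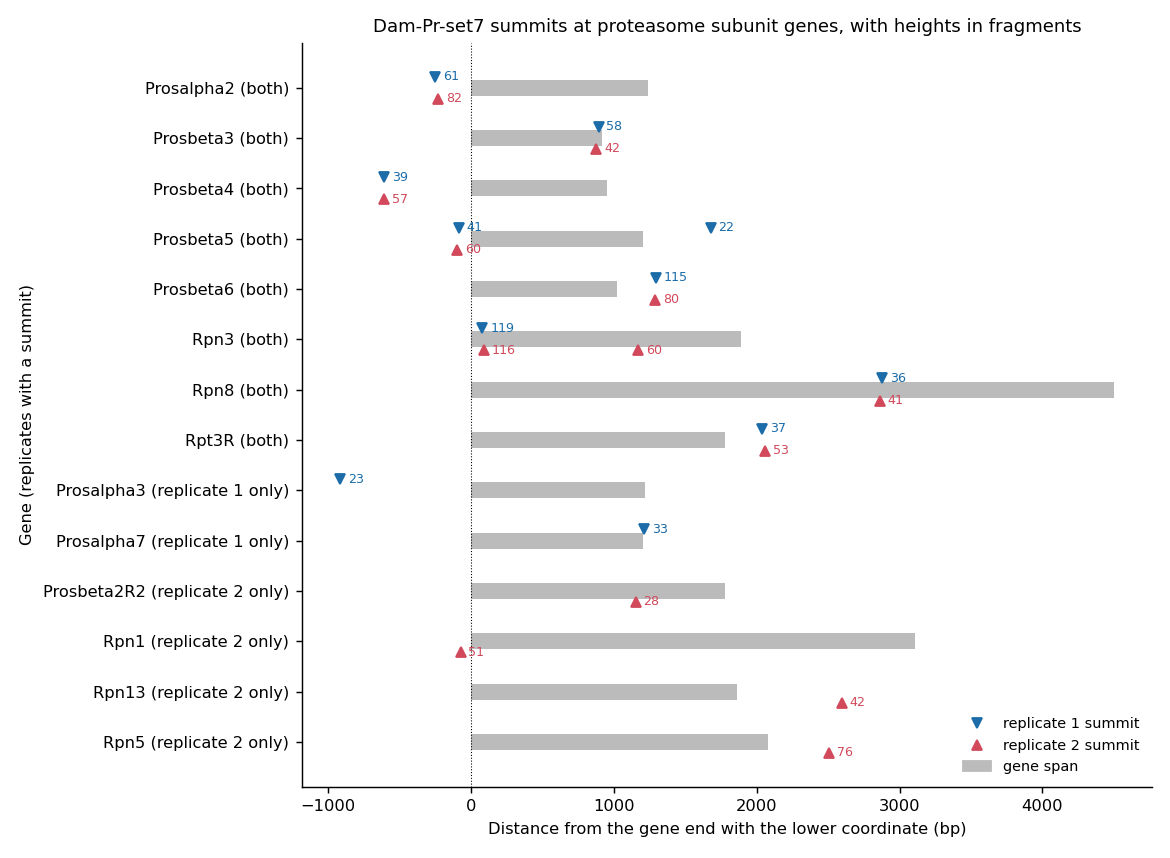
Positions of summits at the 14 proteasome genes reached in at least 1 replicate. The x axis gives the distance in bp from the gene end with the lower coordinate, grey bars are gene spans, triangles are summits of replicate 1 (down) and replicate 2 (up), and the numbers beside them are heights in fragments. At the 8 genes reached in both, the highest summits of the replicates lie at nearly the same position, at most 21 bp apart.

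Of the 7 constitutive genes of the beta ring, 4 had a summit in both replicates (57.1%, interval 18.4 to 90.1%, against 18.2% of all genes) and the other 3 had none in either. Of these 4, only Prosbeta3 kept its summits when they were assigned by the closest gene end, and differences between the subunit families were not tested. The catalytic subunit Prosbeta5, which carries the chymotrypsin-like activity (2R, 10819978 to 10821178, dm6), had a summit of 41 fragments in replicate 1, at 10819892, and one of 60 fragments in replicate 2, at 10819883. They lay 86 and 95 bp outside the end with the lower coordinate. Beyond that end lies dgo, a planar polarity gene, whose own end was 8 and 1 bp from these summits. A second summit of replicate 1, with 22 fragments at 10821655, lay 477 bp beyond the other end and 15 bp from the end of Lsm10, a gene of histone mRNA processing. Replicate 2 had none there. In replicate 1 the gene was therefore flanked on each side by summits that lay nearer to a neighbour.

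Prosbeta6 encodes a beta subunit without a proteolytic site and is a known locus of dominant temperature-sensitive mutations in the fly (3L, 16609400 to 16610418). It carried the higher summits of the ring, with 115 fragments at 16610696 in replicate 1 and 80 fragments at 16610687 in replicate 2. These were 278 and 269 bp outside Prosbeta6 and 34 and 25 bp from an end of the neighbouring gene Su(P). Prosbeta3, another subunit without a proteolytic site (3R, 9005313 to 9006226), had its summits inside the span, with 58 fragments at 9006206 and 42 at 9006191. They were 20 and 35 bp from its own end, the nearest gene end to them. They were also within 1000 bp of Iru, a ubiquitin ligase gene, and CG11980. Prosbeta4 (2L, 16731180 to 16732133) had 39 fragments at 16730572 and 57 fragments at 16730570. These lay 608 and 610 bp outside Prosbeta4 and 114 and 112 bp from an end of CG17996.

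The other catalytic subunits had no summit within reach. Prosbeta1, with the caspase-like activity, had its nearest summits 1368 bp away in replicate 1 (53 fragments) and 1398 bp away in replicate 2 (58 fragments), just beyond the distance allowed. Prosbeta2, with the trypsin-like activity, had its nearest 13000 bp away in replicate 1 and 12330 bp away in replicate 2. For Prosbeta7, which is not one of the catalytic subunits, these distances were 9200 and 7876 bp. At 1000 bp the genes of the 3 proteolytic sites thus differed in this measure, which gives the position of called summits and not the activity of the genes. The difference depended on the rule. At 2000 bp Prosbeta1 was reached in both replicates too, and by the closest gene end none of the 3 was.

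Of the 7 constitutive alpha ring genes, Prosalpha2 alone was reached in both replicates (3R, 12431321 to 12432556). Its summits, with 61 fragments at 12431070 and 82 fragments at 12431091, were 251 and 230 bp outside the gene. They were 165 and 144 bp from an end of CG5245. Prosalpha7 was reached in replicate 1 only, by a summit of 33 fragments 10 bp outside its end with the higher coordinate. The nearest summit of replicate 2 was 2349 bp away, on the other side of the gene. Prosalpha3, whose subunit is central to the closed gate of the barrel in yeast, had a low summit of 23 fragments in replicate 1. It lay 915 bp outside the gene and nearer to an end of dgt3, at 396 bp. In replicate 2 the summit nearest to Prosalpha3 was 7673 bp away. Prosalpha6 was just out of reach in both, at 1203 bp (76 fragments) and 1210 bp (80 fragments), with both summits nearer to Npc1a, a gene of sterol transport. For Prosalpha1, Prosalpha4 and Prosalpha5 the nearest summits lay between 4085 and 23135 bp away over both replicates. Taken over both rings, 5 of 14 constitutive core genes were reached in both replicates (35.7%, interval 12.8 to 64.9%, against 18.2% of all genes).

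The regulatory particle had 2 such genes among 18 (11.1%, interval 1.38 to 34.7%, against 18.2% of all genes), both in the lid. The shares of core and regulatory particle both had intervals that include the background, and the difference between them was not tested. Rpn3, a lid subunit (2L, 19051790 to 19053681), carried the highest summits of the whole set, with 119 fragments at 19051869 in replicate 1 and 116 fragments at 19051878 in replicate 2. They fell inside the gene, 79 and 88 bp from its end with the lower coordinate, and no other gene end was nearer. A further summit of 60 fragments was found inside the gene in replicate 2, 722 bp from the other end. Rpn8, the lid partner of the deubiquitinase Rpn11 (2R, 24400028 to 24404527), is the longest gene of the set, with 4500 bp. Its summits of 36 fragments at 24402905 and 41 fragments at 24402890 lay deep inside the span, 1622 and 1637 bp from its nearest end. They were 225 and 210 bp from an end of the kinase gene Slik, so that Rpn8 counted through its span alone.

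Further Rpn genes were reached in replicate 2 only. Rpn1, the large scaffold of the base, had a summit of 51 fragments 73 bp outside its end, and no other protein-coding gene was in reach of it. In replicate 1 the nearest was 7262 bp away. The lid gene Rpn5 had 76 fragments at 431 bp, against a nearest distance of 2824 bp in replicate 1. The summit of 76 fragments was 121 bp from an end of Hpf1, a gene of ADP-ribosylation. The ubiquitin receptor gene Rpn13 had 42 fragments at 736 bp, against 15198 bp in replicate 1. An end of CtsL1 was nearer to the summit of 42 fragments, at 465 bp. Replicate 2 holds more summits in all than replicate 1, and whether the missing summits of replicate 1 follow from depth was not tested.

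The remaining Rpn genes were reached in neither replicate. Rpn2, the other scaffold, had its nearest summits at 1529 bp (30 fragments) and 1523 bp (52 fragments). The ubiquitin receptor gene Rpn10 had its nearest at 3609 and 1303 bp, and the deubiquitinase gene Rpn11 at 3535 and 3560 bp. For Rpn6, Rpn7, Rpn9 and Rpn12 the distances ran from 1691 to 26157 bp over both replicates. None of the 6 constitutive ATPase genes, Rpt1 to Rpt6, was reached in either replicate (0%, interval 0 to 45.9%, against 32.4% of all genes). Rpt4 (1646 and 1594 bp), Rpt1 (1362 and 2012 bp) and Rpt2 (2292 and 2301 bp) had summits somewhat farther out. The summits near Rpt4 had 75 and 83 fragments and were in reach of Top3beta and wuho. Those near Rpt2 had 76 and 101 fragments and lay 53 and 62 bp from an end of CG13601. Rpt3, Rpt5 and Rpt6 had their nearest between 2451 and 9434 bp away over both replicates. With 6 genes, a share as high as that of all genes is inside the interval.

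**Figure D2:**
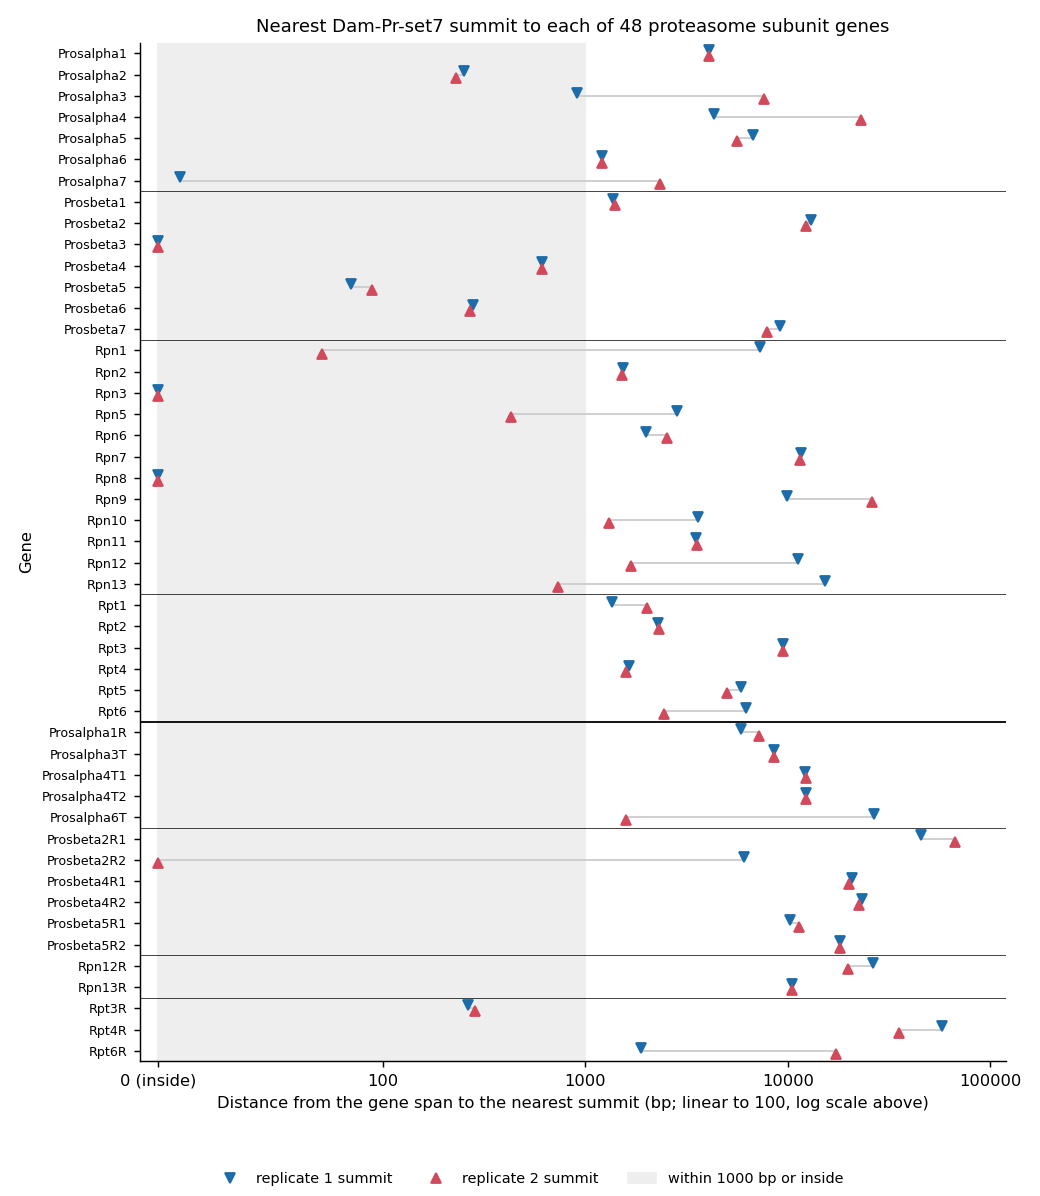
Distance in bp from each of the 48 genes to its nearest summit, with 0 for a summit inside the gene; the axis is linear up to 100 bp and on a log scale beyond. Triangles are replicate 1 (down) and replicate 2 (up), the shaded part marks the distance that counted as reached, the thick line separates the 32 constitutive genes (top) from the 16 lettered variants, and thin lines separate alpha ring, beta ring, Rpn and Rpt genes. Within 5000 bp, a distance chosen after values had been seen, 19 of the 32 constitutive genes (59.4%) have a summit in both replicates. Of the 16 variants 1 has (6.25%), against 34.2% of all genes.

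Among the 16 lettered variants, 1 was reached in both replicates (6.25%, interval 0.158 to 30.2%, which includes the 18.2% of all genes). This was Rpt3R, a paralogue of the ATPase gene Rpt3 (3R, 9754735 to 9756510), with 37 fragments at 9756774 and 53 fragments at 9756795. These were 264 and 285 bp outside the gene, nearer to it than to any other, with Alg12, a gene of protein glycosylation, also in reach. Rpt3 itself had its nearest summits 9428 and 9434 bp away, so the paralogue and not the constitutive gene was reached. Prosbeta2R2 had an internal summit of 28 fragments in replicate 2 only, 625 bp from its end. The other 14 variants were Prosalpha1R, Prosalpha3T, Prosalpha4T1, Prosalpha4T2, Prosalpha6T, Prosbeta2R1, Prosbeta4R1, Prosbeta4R2, Prosbeta5R1, Prosbeta5R2, Rpn12R, Rpn13R, Rpt4R and Rpt6R, and none was reached. Of them, Prosalpha6T (1583 bp in replicate 2) and Rpt6R (1893 bp in replicate 1) came closest.

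The constitutive genes and the variants also stood at different distances from summits. The median distance from gene to nearest summit was 2558 bp in replicate 1 and 1851.5 bp in replicate 2 for the constitutive genes, and 12264.5 and 12283 bp for the variants. Over all genes it was 8402.5 and 5332.5 bp. The variants also stood farther from other genes, with a median gap of 126 bp against 26.5 bp for the constitutive genes. All 4 members without another gene within 1000 bp were variants. Whether this bears on the distances to summits was not tested. Within 1000 bp, 21.9% of the constitutive genes (7 of 32, interval 9.28 to 39.97%) had a summit in both replicates. Within 5000 bp, 59.4% of the constitutive genes had one (19 of 32, interval 40.6 to 76.3%), against 6.25% of the variants (1 of 16) and 34.2% of all genes. Among all genes of the same range of lengths it was 33.0%. Up to 2000 bp the interval of the constitutive genes included the share of all genes, and at 3000, 5000 and 10000 bp it lay above that share. The cytoplasmic and mitochondrial ribosomal protein genes also lay above all genes within 5000 bp, at 47.7% (interval 37.0 to 58.6%) and 47.9% (36.1 to 59.96%), so this is not particular to the proteasome. All 48 proteasome genes gave 41.7% (27.6 to 56.8%), which includes the share of all genes. Distances beyond 2000 bp were chosen after values had been seen. These values are descriptions without a test, because the genes were chosen by name with earlier results known.

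**Figure D3:**
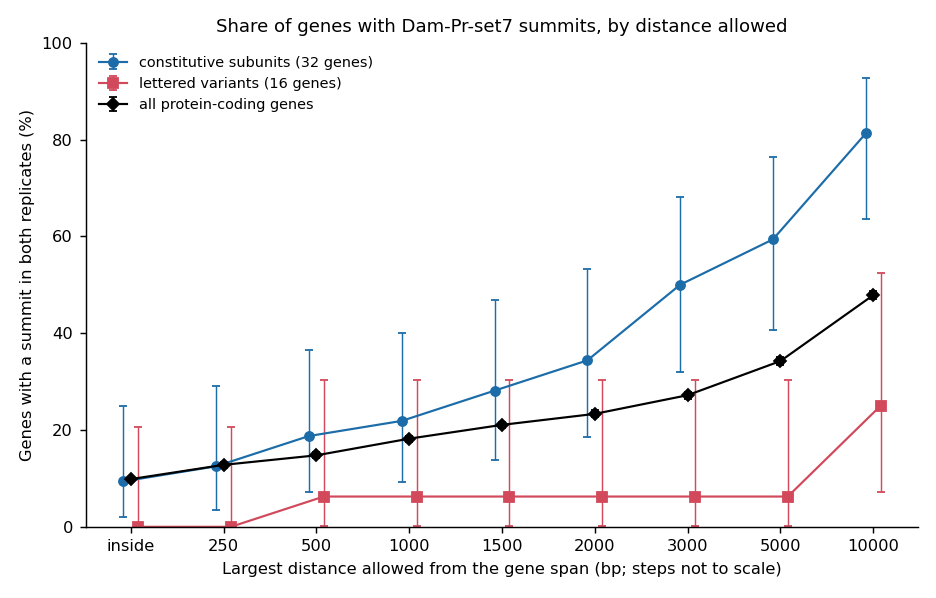
Share of genes in percent with a summit in both replicates (y axis) as the distance allowed from the gene span grows (x axis, in bp, steps not to scale), for the 32 constitutive genes (circles), the 16 variants (squares) and all 13922 protein-coding genes (diamonds). Bars are exact 95% binomial intervals. At 1000 bp the constitutive genes (21.9%) lie close to all genes (18.2%), and at 5000 bp, a distance chosen after values had been seen, they reach 59.4% against 34.2%.

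Beside genes out of reach, summits of the replicates lay together about as often as over all genes. Of the 20 constitutive genes reached in neither replicate, 9 had nearest summits within 500 bp of each other (45%), as had 5 of 14 variants (35.7%) and 39.7% of all genes reached in neither. The 9 were Prosalpha1, Prosalpha6, Prosbeta1, Rpn2, Rpn7, Rpn11, Rpt2, Rpt3 and Rpt4. For 5 of these, Prosalpha6, Prosbeta1, Rpn2, Rpt2 and Rpt4, they were within 2500 bp of the gene. Around the limit of 1000 bp, Prosalpha3 at 915 bp in replicate 1 and Rpn13 at 736 bp in replicate 2 were just inside, and Prosalpha6 was just outside in both.

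Position and gene density were further features that the choice by name did not use. Proteasome genes are short, with a median length of 1381.5 bp (881 to 4500) against 2163 bp for all genes. Among all genes of 881 to 4500 bp, 15.5% were reached in both replicates, beside 16.7% of the proteasome genes. The median gap to the nearest other protein-coding gene was 81.5 bp, against 59 bp for all genes. Such a gene lay within 1000 bp of 44 of the 48, and of 12195 of all 13922 genes. Close neighbours were therefore not particular to the proteasome genes. All 8 genes reached in both replicates had such a neighbour, and the 4 genes without one, Prosalpha3T, Prosbeta2R1, Prosbeta5R1 and Prosbeta5R2, were reached in neither replicate. Of all genes, 19.2% with such a neighbour and 11.1% without were reached in both. In at least 1 replicate these shares were 33.9% and 22.0%. At 5 of the 8 genes (Prosalpha2, Prosbeta4, Prosbeta5, Prosbeta6 and Rpn8) the end of another gene was nearer to the highest summits, and at Prosbeta3, Rpn3 and Rpt3R no other end was. Which gene, if any, such a summit belongs to was not tested. The 6 members on the X chromosome, Prosalpha4, Prosbeta2R1, Rpn13R, Rpt3, Rpt4 and Rpt6, were reached in neither replicate. Of all genes on X, 26.9% were reached in at least 1 replicate and 14.5% in both. Of the 42 members on the autosomes 19.0% were reached in both, against 18.9% of all autosomal genes.

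Heights at the proteasome genes were in the middle of the range. Among the 8 genes the highest summits had a median of 49.5 fragments in replicate 1 (36 to 119) and 58.5 in replicate 2 (41 to 116). Over the 2534 genes reached in both the medians were 54 and 63 fragments. Rpn3 had height percentiles of 90.1 and 92.2 within the lists of replicates 1 and 2, Prosbeta6 of 89.2 and 82.5, and Rpn8 of 42.1 and 55.2. The ratio of heights, replicate 2 over replicate 1, ran from 0.696 at Prosbeta6 to 1.46 at Prosbeta5 with a median of 1.24, beside 1.13 over all such genes. This ratio contains the unknown difference in depth. All 8 genes had their highest summits within 500 bp of each other, with a median of 12 bp and a maximum of 21 bp. Over all genes reached in both this held for 83.9%, with a median of 26 bp and a maximum of 242222 bp. That set includes far longer genes. It held for all 5 Vha genes of the vacuolar ATPase and all 6 genes of proteasome regulation reached in both. For cytoplasmic and mitochondrial ribosomal protein genes the shares were 87.5 and 82.4%, so close pairs are not particular to the proteasome.

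**Figure D4:**
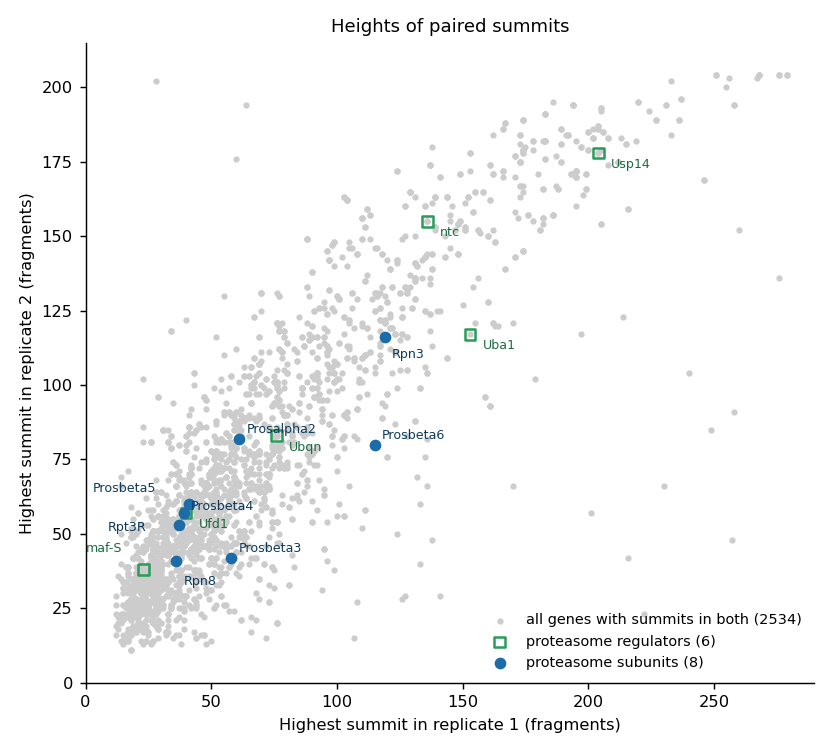
Height in fragments of the highest summit in replicate 1 (x axis) and replicate 2 (y axis) for the 8 proteasome subunit genes (filled circles), 6 genes of proteasome regulation (open squares) and all 2534 genes reached in both replicates (grey). The subunits range from 36 to 119 fragments in replicate 1, and Usp14 with 204 and 178 fragments lies above all of them.

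Genes that build, regulate or supply the proteasome were a separate list of 20, of which 6 were reached in both replicates (30%, interval 11.9 to 54.3%, against 18.2% of all genes). The interval includes the background. By the closest gene end 3 were left (15%, against 11.1% of all genes). Usp14, a deubiquitinase that binds the regulatory particle, had 204 fragments in replicate 1 and 178 in replicate 2, at height percentiles of 98.3 and 98.6. These summits were 388 and 373 bp outside the gene and in reach of CG4972 too. The gene of the F-box protein Nutcracker, ntc, had internal summits of 136 and 155 fragments, in reach of CG32264 and IntS10 too. Uba1, the ubiquitin-activating enzyme, had internal summits of 153 and 117 fragments that reached no other gene. Ubqn, a shuttle for ubiquitinated proteins, had 76 and 83 fragments at 631 and 654 bp, within reach of dome, a cytokine receptor gene. Ufd1, a cofactor of the segregase TER94, had 40 and 57 fragments inside the gene, with NaPi-III also in reach. maf-S, the small Maf partner of the factor CncC, had its highest summits at 23 and 38 fragments, in reach of CG11110, Polr3K and Tcs1 too. In this list, summits of 4 genes were above the median height in both replicates.

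The other 14 genes of the list included several with direct roles at the particle. The Ddi1 homologue gene rngo was reached in replicate 2 only, by 38 fragments 75 bp outside it. Pomp, which assembles the core particle, had its nearest summits at 12259 and 6709 bp, and the activator gene REG at 18231 and 18229 bp. The lid subunit gene Sem1, whose symbol is outside the naming rule, had them at 1586 and 1575 bp. For cnc, which encodes the transcription factor CncC of proteasome genes, they were 21986 and 10471 bp away. PI31, Uch-L5, Pngl, Rad23, TER94, Npl4, Ubi-p63E, Ubi-p5E and Txl were also reached in neither replicate, with Pngl just out of reach at 1032 and 1034 bp.

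Other large complexes gave shares of the same order. In both replicates 18.2% of 88 cytoplasmic ribosomal protein genes, 23.3% of 73 mitochondrial ribosomal protein genes and 15.2% of 33 Vha genes of the vacuolar ATPase were reached, beside 16.7% of the proteasome genes. Inside the gene itself or within 250 bp, 8.33% of the proteasome genes had a summit in both replicates, against 1.14% of the cytoplasmic and 12.3% of the mitochondrial ribosomal protein genes and 12.8% of all genes. No test of these differences was made.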

How the data were processed

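Targeted DamID of genomic DNA was deposited as lists of summits for the 2 Dam-Pr-set7 samples. Reads were handled with MACS 1.4.2, Bowtie2 2.2.6 and bcl2fastq 2.19.0.316 on build dm6, per the submitters' processing notes. Settings for cutoffs, duplicates and a control library are not given in the sources used here. Files deposited by the authors hold 1 bp positions, called per sample, with a signal that is the authors' pileup height in fragments, not scaled to depth. Replicate numbers follow accession order. The labels do not say whether separate pools of animals were used.

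Gene spans came from RefSeq (assembly Release 6 plus ISO1 MT, to which dm6 corresponds). Strand was not used here, so starts and 3′ ends were not told apart. Motifs and promoter sequence were not used here. All 48 members lie on the 6 arms, as do 2856 and 4240 summits. Percentiles are mid-ranks within a list. Of 20 regulators 19 matched by symbol and 1, Ufd1-like (Ufd1), by synonym. Members and lists were chosen with earlier results of these data known. All members are named, with full values for those reached in both replicates. No test was run; shares have exact Clopper-Pearson 95% intervals. Alternatives were other distances (500 and 2000 bp), gene ends alone, nearest ends, heights above the median and each replicate left out. Computation used SciPy 1.17.1, pandas 2.3.3, numpy 2.4.6 and matplotlib 3.10.9 under Python 3.11.15, and the linking of summits to genes was tested on simulated data.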

Additional observations from a re-analysis of the deposited data

How the results depend on the processing

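The count of proteasome genes reached in both replicates was 8. It was 7 at 500 bp (14.6%, against 14.8% of all genes) and 12 at 2000 bp (25%, against 23.3%). By gene ends alone it was 7 (14.6%, against 14.3%). Replicate 2 alone reached 12 (25%, against 28.1%) and replicate 1 alone 10 (20.8%, against 22.5%). These counts stayed within 1.5 times of 8, and their shares lay near those of all genes. At 2000 bp the added genes were Prosalpha6, Prosbeta1, Rpn2 and Rpt4, and constitutive genes came to 11 (34.4%, against 23.3% of all genes). With nearest ends only, 3 members (6.25%), 2 constitutive genes (6.25%), 3 regulators (15%) and 1548 of all genes (11.1%) were left. With summits above the median height, 4 members (8.33%) and 1512 of all genes (10.9%) were left. The members were 4 constitutive genes (12.5%) and 0 variants. With a replicate left out, variants came to 1 to 2 (6.25 to 12.5%) and all genes to 3134 to 3911 (22.5 to 28.1%). The comparison sets were recomputed by choice after the data were seen. Cytoplasmic ribosomal protein genes (16) gave 6 at 500 bp (6.82%, against 14.8% of all genes) and 26 at 2000 bp (29.5%, against 23.3%). By nearest end they gave 3 (3.41%, against 11.1%). With a replicate left out they gave 21 to 25 (23.9 to 28.4%, against 22.5 to 28.1%). At 500 bp, at 2000 bp and by nearest end, mitochondrial ones (17) gave 11, 28 and 7 (15.1, 38.4 and 9.59%). In the same order, Vha genes (5) gave 3, 10 and 3 (9.09, 30.3 and 9.09%). They gave 3 above the median height (9.09%, against 10.9% of all genes) and 8 with either replicate left out (24.2%). The 8 paired members were within 250 bp as within 1000 bp. The cause of these shifts was not tested, but their direction is fixed by construction. Nearest ends, the height limit, gene ends alone and 500 bp can only lower a count. A distance of 2000 bp and a replicate left out can only raise it. Position relative to the gene start was not run, since strand was not used. No paired analysis was possible because the Dam samples were not analysed here and the labels give no replicate numbers. Unknown depth limits what a missing summit shows.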
